A study of Symphysodon aequifasciata with 2 samples.

Results

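Cadherins and protocadherins are adhesion molecules whose extracellular repeats bind calcium. They were picked from the deposited brain expression table as every feature whose protein annotation holds the word cadherin, which gave 146 of 40209 features. By name, 73 were clustered protocadherins (33 alpha, 21 beta and 19 gamma) and 73 were other cadherins. No catenin or other cadherin-associated protein met the rule, and the calsyntenins are not so named. The brains came from 1 male and 1 female discus (Symphysodon aequifasciatus, an ornamental cichlid), both 1 year old and killed in 100 mg/L of the anaesthetic MS-222, with no genotype or other treatment in the labels. Poly(A) RNA of each brain was made into 1 unstranded paired-end library, so the comparison is 1 male library against 1 female library. Sex and the fish, its handling and its library cannot be told apart, and no test between the sexes was possible. The library titles begin with O for the fish labelled male and T for the fish labelled female, and these letters are not explained, so every direction given here follows the gender label.

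Classical cadherins join neighbouring cells by binding the same cadherin on the other cell, and their tails hold catenins, which link them to actin. Clustered protocadherins are encoded in tandem arrays of variable exons. In mouse neurons, each cell uses its own small selection of them, and matching selections on the branches of one neuron lead those branches to avoid each other. Fat, dachsous and CELSR proteins are very large cadherins that align cells within a tissue plane and guide axons.

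Each feature is a transcript cluster assembled from reads without a genome. Its level is given in TPM, a share of all transcripts that divides reads by length. Levels of different features can thus be compared, though less safely for features near or below the fragment length of the library. The 146 features fell into 106 assembly clusters, and 28 of those clusters held 2 or more members, so the features are not 146 genes. Their length ran from 202 to 7809 bases with a median of 342 bases, and 83 of them measured 380 bases or less. All 146 were above 0 in both libraries. The male library held about 25386468 and the female library about 22812152 reads on listed features, as estimated from the steps between TPM values, and the cadherins took 71715 and 62794 of these. In the shortest features of the table a single read was worth 1.11 TPM in the male brain and 1.23 TPM in the female brain, against 0.0347 and 0.0385 TPM at 1000 bases. Intervals of a fold given here are exact 95% (Clopper-Pearson) intervals of counting error alone, which do not cover differences between fish and are too narrow where reads are duplicates. Brain markers matched the labelled tissue: snap25a, a neuronal synaptic protein, stood at 2201 TPM in the male brain and 2642 TPM in the female brain, and the 4 radial glia markers were all matched. Of these, fabp7 stood at 1652 and 2443 TPM and gfap at 218 and 226 TPM, while slc1a2 at 209.9 and 166 TPM and glul at 389.9 and 307 TPM were lower in the female library. All 5 neuron markers were matched and summed to 2422 and 2807 TPM, most of which was snap25a. By log2 ratio 2 of the 5 were above and 3 below 0, with a median of -0.32. SYT1 at 80.58 and 64.55 TPM and NEFM at 60.14 and 43.61 TPM were lower in the female library. None of the 3 muscle markers or of the 2 blood markers was matched, and 1 of 4 oligodendrocyte markers was. An unmatched symbol does not show absence, since haemoglobin alpha features were found under other symbols. Haemoglobin alpha features were higher in the female library, with hbab at 230 TPM in the male brain and 563 TPM in the female brain, and ELAVL3, a neuronal RNA-binding protein, was lower there, at 52.7 and 25.9 TPM, while its relative elavl4 was not, at 26.8 and 31.5 TPM. The pituitary hormone gene pomca stood at 4.40 and 22.7 TPM on 6 and 28 reads. The part of blood, pituitary or neuron content in the cadherin values was not tested. In whole brain, fewer cells of a type and less RNA per cell cannot be told apart.

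Most cadherins stood at a similar level in both brains, and those that were apart were mainly short features higher in the male library. The limit for calling a feature apart was 2-fold on the scale of log2((female TPM + 0.5) / (male TPM + 0.5)). By this count 21 of 146 members (14.4%) were higher in the male library, against 10.1% of all features, and 5 (3.42%) were higher in the female library, against 5.02% of all features. The counting interval of the fold left out 1 for 17 of the 21 (8.96% of all features) and for 4 of the 5 (4.35% of all features). A lower value in the female library, of any size, was found for 90 of 146 members (61.6%) and for 56.2% of all features. Among members of 380 bases or less, 19 of 83 were higher by 2-fold or more in the male library, against 17.6% of all features of that length. In the same length range 4 were higher by 2-fold or more in the female library, against 9.16%. Among the 36 members of at least 1000 bases none was 2-fold higher in the male library, where 1.01% of all such features were, and 1 was 2-fold higher in the female library, where 0.373% were. The interval of these 36 left out 1 for 13 that were lower and 10 that were higher in the female library, against 37.9% and 23.4% of all features of that length. The median log2 ratio was -0.17 over the members and -0.07 over all features, and at 1000 bases or more it was -0.02 and -0.05.

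**Figure D1:**
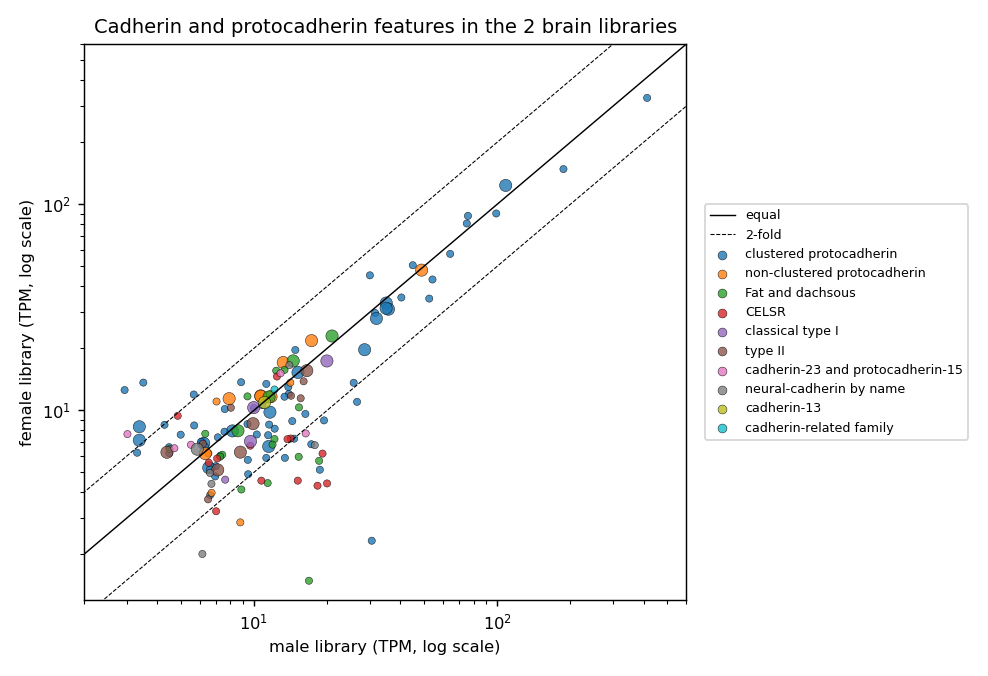
TPM of the 146 cadherin features in the male (horizontal axis) and female library (vertical axis), both on log scales, with 1 point per feature, larger at 1000 bases or more, and a colour per class; the solid line marks equal levels and dashed lines mark 2-fold. The most abundant point, a protocadherin alpha-C2-like feature, sits at 414 TPM in the male brain and 328 TPM in the female brain, and the points farthest from the solid line are short features.

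Most members that were 2-fold apart towards the male library were other cadherins. Of these, 15 of 73 were higher by 2-fold or more in the male library and 1 in the female library, which is 20.5% and 1.37%, against 10.1% and 5.02% of all features. Of the 73 clustered protocadherins 6 and 4 were, or 8.22% and 5.48%, close to the shares of all features. These shares are not matched for length. Of all features of 380 bases or less 17.6% and 9.16% were, and of those of at least 1000 bases 1.01% and 0.373%. Summed over features, the other cadherins stood at 838 TPM in the male brain and 684 TPM in the female brain, a ratio of 1.22 (95% counting interval 1.15 to 1.301). The clustered protocadherins summed to 2014 and 1771 TPM, a ratio of 1.14 (1.09 to 1.19). Neither excess was seen at that size in long features. At 1000 bases or more the sums were 286 and 293 TPM for 22 other cadherins, and 341 and 334 TPM for 14 clustered protocadherins. Across features of at least 1000 bases, log2(TPM + 0.5) in the 2 libraries correlated with r = 0.93 (36 features), and at 380 bases or less with r = 0.67 (83 features). These points share both libraries, and several share a gene. The lowest value of the higher library was 6.01 TPM, while the value in the other library can lie below that. A feature can thus be listed through its level in 1 library alone.

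**Figure D2:**
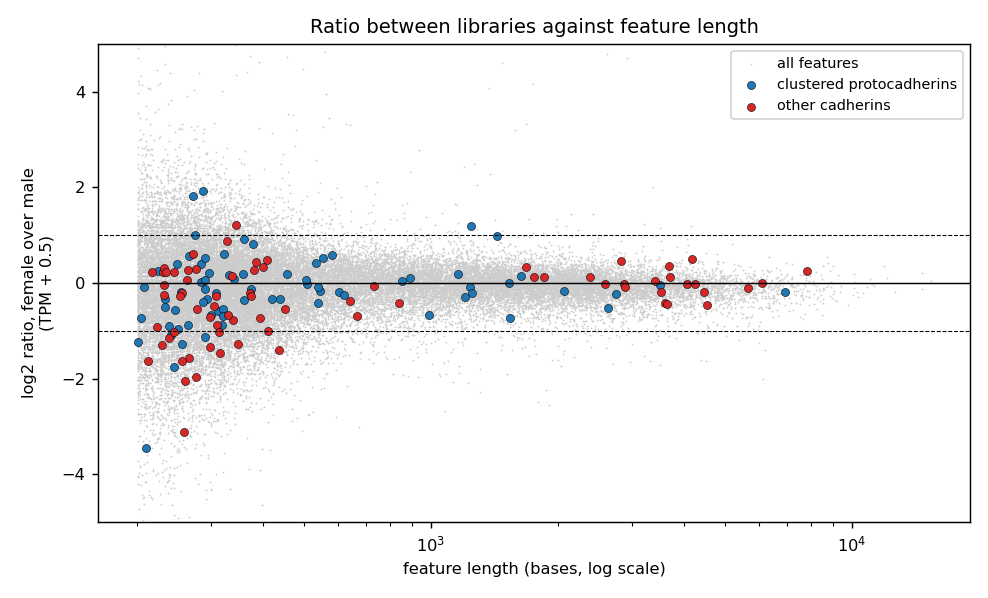
Feature length in bases (horizontal axis, log scale) against the log2 ratio of female over male TPM with 0.5 added (vertical axis, whose range leaves out the most extreme grey points), for all features in grey, clustered protocadherins in blue and other cadherins in red; dashed lines mark 2-fold. Coloured points beyond the lines are nearly all short, and the single one at 1000 bases or more is a protocadherin gamma-A2-like feature with 3.38 TPM in the male brain and 8.33 TPM in the female brain.

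Clustered protocadherins were the most abundant cadherins of both brains. The top feature was annotated protocadherin alpha-C2-like, with 414 TPM in the male brain and 328 TPM in the female brain, ranks 197 and 264 of all features. It is 234 bases long, with 478 and 344 reads, and its best Swiss-Prot match is another family, PCDHB1. The mean fragment length fitted to the steps between TPM values was 252.6 bases in the male library and 253.3 bases in the female library. The TPM of a feature this short depends strongly on how length is corrected. A protocadherin beta-16-like feature of 294 bases followed with 187 TPM in the male brain and 148 TPM in the female brain. Next came a protocadherin gamma-A2-like feature of 1162 bases, at 108 and 123 TPM, 1.14-fold higher in the female library (interval 1.09 to 1.19). Its first listed Pfam domain is Cadherin_tail, the cytoplasmic part, which members of a cluster share through common last exons. The reads of this feature therefore need not come from the gamma-A2 variable exon. Among features of at least 1000 bases, the next most abundant was not a clustered one but protocadherin-10, at 48.95 and 47.9 TPM.

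Protocadherin alpha-C2 is a C-type isoform at the end of the alpha cluster, which mouse serotonergic neurons need to spread their axons. It was annotated for 13 features, which summed to 626 TPM in the male brain and 513 TPM in the female brain. Of these sums, 414 and 328 TPM came from the feature of 234 bases whose Swiss-Prot match is PCDHB1. None of the 13 features was 2-fold apart. The longest, 6929 bases with a Cadherin_tail domain, stood at 31.9 and 27.9 TPM, 1.14-fold higher in the male library (interval 1.11 to 1.18). As with the gamma-A2-like feature, its reads need not all come from the alpha-C2 variable exon. A feature of 2629 bases in the same assembly cluster stood at 28.5 and 19.7 TPM, 1.45-fold higher in the male library (1.36 to 1.54). The most abundant of the long ones, of 1251 and 2065 bases, stood at 35.8 and 30.97 TPM and at 34.96 and 31.3 TPM. Of the 6 alpha-C2 features of at least 1000 bases, 5 were higher in the male library with an interval that left out 1, as were 37.9% of all features of that length. The sixth stood at 6.22 and 6.92 TPM. These 6 were the only alpha features of that length, and together they held 144 TPM in the male brain and 122 TPM in the female brain. An alpha-5-like feature of 890 bases with a Cadherin_tail domain was more abundant than any of them and went the other way. It stood at 75.05 and 80.73 TPM, 1.08-fold higher in the female library (1.01 to 1.15).

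The gamma features of at least 1000 bases, 7 in number, summed to 189 TPM in the male brain and 204 TPM in the female brain, of which the gamma-A2-like feature with the tail domain held 108 and 123 TPM. Protocadherin gamma-C5, a C-type isoform at the end of the gamma cluster, had 4 of them. The most abundant stood at 35.0 and 33.2 TPM, and another of 1531 bases stood at 15.2 and 15.3 TPM. A further gamma-C5-like feature of 1544 bases, from the same assembly cluster, stood at 11.5 TPM in the male brain and 6.68 TPM in the female brain, 1.72-fold higher in the male library. In the other direction, a pair of gamma-A2-like features from another cluster were higher in the female library. That of 1243 bases stood at 3.38 and 8.33 TPM, 2.46-fold higher in the female library (interval 1.99 to 3.06, from 129 and 286 reads). That of 1438 bases stood at 3.38 and 7.16 TPM, a TPM ratio of 2.12 (1.74 to 2.59) that lies just under 2-fold on the scale with 0.5 added, at 0.98. In the male library both lay below 6.01 TPM, the lowest value of the higher library. The pair was thus listed through its female level alone, which the folds and intervals do not allow for.

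The clustered features farthest apart were short and rested on few reads. A protocadherin beta-16-like feature of 210 bases stood at 30.5 TPM in the male brain and 2.33 TPM in the female brain, which is 29 against 2 reads and a 13.1-fold difference with an interval from 3.31 to 113. A protocadherin beta-15-like feature of 288 bases was at 2.94 and 12.6 TPM, which is 6 against 23 reads. Others past 2-fold were an alpha-8-like feature of 202 bases at 26.6 TPM in the male library and 11 TPM in the female library, a beta-16-like feature of 241 bases at 19.4 and 8.94 TPM, and an alpha-3-like feature of 290 bases at 13.4 and 5.88 TPM. All 3 were higher in the male library. In 1 assembly cluster, 3 alpha-8-like features went opposite ways. One stood at 18.7 and 5.15 TPM in the male and female library, another at 3.51 and 13.6 TPM, and the last at 3.31 and 6.23 TPM, and their sums were 25.49 and 25.02 TPM. A second cluster of 4 features, named gamma-A3, gamma-A5 and beta-16, held 1 feature at 17.2 and 6.85 TPM and another at 5.66 and 11.9 TPM, with sums of 41.0 and 35.4 TPM. The lowest value of the higher library was 6.01 TPM. Any feature named here that lay below this in 1 library, as all 3 alpha-8-like features of 1 cluster did, was listed through the other library alone. Its direction was fixed by that. Names within the clustered families are uncertain. The Swiss-Prot match named the annotated family for 34 of 73 features, another of alpha, beta and gamma for 24, protocadherin-10 for 9, protocadherin-19 for 1 and nothing for 5. The paralogues are near-identical in places, so reads can be split between them.

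**Figure D3:**
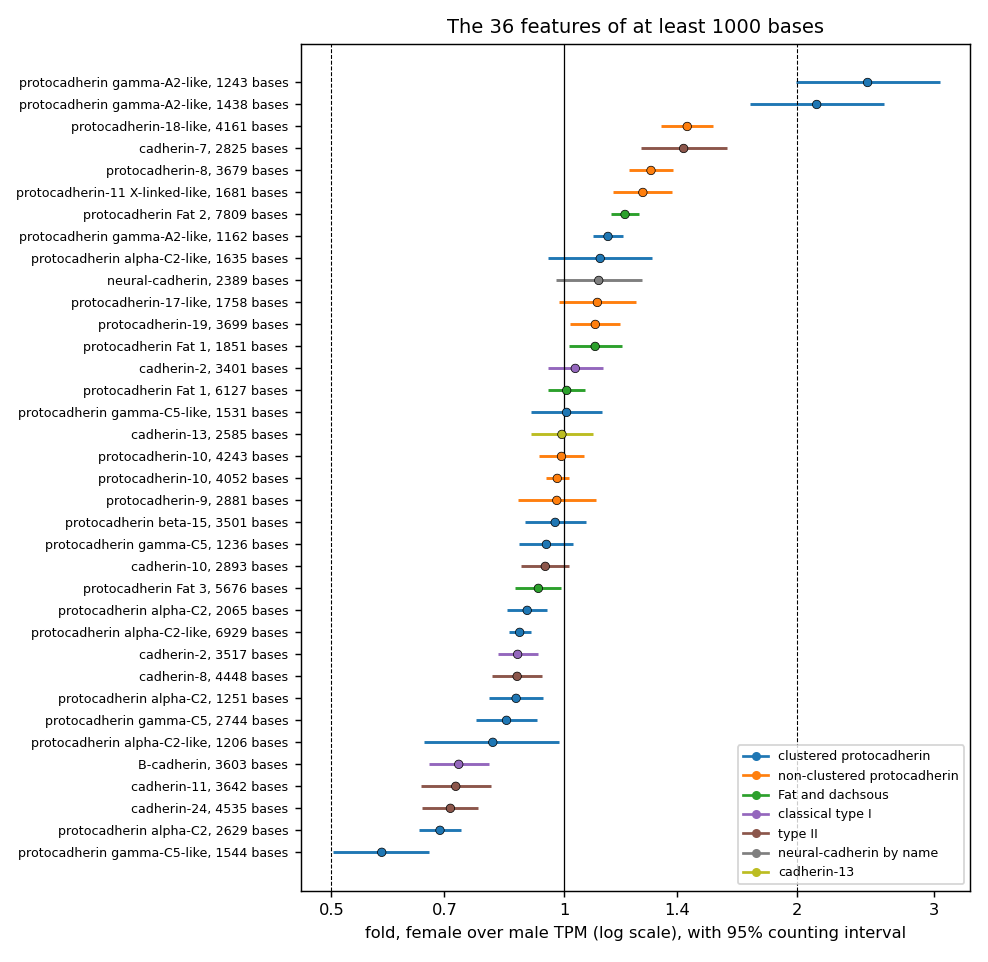
Fold of female over male TPM (horizontal axis, log scale) of the 36 cadherin features of at least 1000 bases, 1 point per feature with its 95% counting interval as a bar, sorted by fold and coloured by class; the solid line marks a fold of 1 and dashed lines mark 2-fold in either direction. The bars of 13 features lie left of 1 (lower in the female library), 10 lie right of it and 13 cross it, and the gamma-A2-like pair at 2.46 and 2.12 is farthest out. That pair was listed through its female level alone.

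Non-clustered protocadherins lie outside the clusters and have tails of their own that bind actin regulators and kinases. The 8 features of at least 1000 bases summed to 127 TPM in the male brain and 140 TPM in the female brain, with 4 higher in the female library by an interval that left out 1, 4 with an interval that held 1, and none the other way. Of all features of at least 1000 bases, 23.4% were higher and 37.9% lower in the female library by this interval. Protocadherin-10, which recruits the WAVE actin complex through Nap1 in mice, was the most abundant at 48.95 TPM in the male brain and 47.9 TPM in the female brain (4052 bases). Its fold of 0.979, female over male, had an interval from 0.946 to 1.013. A second protocadherin-10 feature of 4243 bases stood at 11.8 and 11.7 TPM.

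Protocadherin-18 stood at 7.91 TPM in the male brain and 11.4 TPM in the female brain, 1.44-fold higher in the female library (1.33 to 1.55). Protocadherin-8, known in rats as the activity-regulated arcadlin, stood at 13.2 and 17.1 TPM, 1.29-fold higher in the female library (1.21 to 1.38). The feature named protocadherin-11 X-linked-like, whose Swiss-Prot match is PCDH9, stood at 17.3 and 21.8 TPM, 1.26-fold higher in the female library (1.16 to 1.38). These 3 folds were the largest among the long non-clustered features. Protocadherin-19, whose human gene is an epilepsy gene, stood at 10.7 and 11.7 TPM, and protocadherin-17 at 10.7 and 11.8 TPM. Protocadherin-1 was represented by features of 732 and 668 bases, at 6.50 and 6.19 TPM and at 6.70 and 3.98 TPM in the male and female library. Protocadherin-12, an endothelial protocadherin, had a feature of 315 bases at 8.79 and 2.86 TPM and another of 232 bases at 14.1 and 13.6 TPM. The first, on 24 and 7 reads, has PCDH18 as its Swiss-Prot match.

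Among classical type I cadherins, cadherin-2 (N-cadherin), the main classical cadherin of neural tissue, was the most abundant. Its feature of 3517 bases stood at 19.96 TPM in the male brain and 17.4 TPM in the female brain, 1.15-fold higher in the male library (1.08 to 1.22). A second cadherin-2 feature of 3401 bases, in the same assembly cluster, stood at 9.98 and 10.3 TPM. The interval of the second held 1, that of the first did not. B-cadherin, whose Swiss-Prot match is the epithelial cadherin CDH1, stood at 9.68 and 7.07 TPM over 3603 bases, 1.37-fold higher in the male library (1.25 to 1.497). A short Cdh1 feature stood at 7.62 and 4.61 TPM. Keratin features krt8 and krt18, from the epithelial and meningeal list, stood at 113 and 141 TPM and at 80.0 and 83.2 TPM, and epcam was not matched. The part of such cells in the B-cadherin values was not tested.

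Type II cadherins mark groups of neurons and, in the case of cadherin-5, the junctions of blood vessels. None of the 11 was 2-fold apart. The 5 features of at least 1000 bases summed to 46.7 TPM in the male brain and 41.9 TPM in the female brain. Cadherin-24 (4535 bases) stood at 8.80 and 6.27 TPM, 1.404-fold higher in the male library (1.29 to 1.53), and cadherin-11 at 7.10 and 5.14 TPM. Cadherin-8 stood at 9.92 and 8.62 TPM and cadherin-10 at 16.5 and 15.6 TPM, while a short cadherin-12-like feature stood at 16.01 and 13.8 TPM. Cadherin-7 (2825 bases, matched to Cdh8 in Swiss-Prot) went the other way, at 4.39 and 6.26 TPM, 1.43-fold higher in the female library (1.26 to 1.62). Both cadherin-7 and cadherin-11 lay below 6.01 TPM, the lowest value of the higher library, in 1 library, and so were listed through the other alone. Cadherin-5 had only a feature of 254 bases, at 14.2 and 11.8 TPM on 20 and 15 reads. The other endothelial markers measured, kdr and cldn5, stood at 11.5 and 12.9 TPM and at 27.5 and 35.4 TPM, and the 3 of 5 matched endothelial markers summed to 53.3 and 60.1 TPM. Cadherin-13 (T-cadherin), which is held to the membrane by a lipid anchor and has no tail, was nearly level at 11.01 and 10.93 TPM over 2585 bases, with a fold of 0.993 and an interval from 0.906 to 1.09.

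Fat and dachsous cadherins bind one another between cells, and protocadherin-16 and protocadherin-23 are the dachsous members. Long Fat features differed little. Fat2, which acts on parallel fibres of cerebellar granule cells in mice, was the longest cadherin feature at 7809 bases and stood at 14.5 TPM in the male brain and 17.4 TPM in the female brain, 1.198-fold higher in the female library (1.15 to 1.25). Fat1 features of 1851 and 6127 bases stood at 20.95 and 22.96 TPM and at 11.5 and 11.6 TPM. Fat3 stood at 8.60 and 7.96 TPM over 5676 bases. The 4 long features summed to 55.6 and 59.9 TPM.

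At 380 bases or less, 10 of 14 Fat and dachsous features had the lower level in the female library, where 57.3% of all features of that length were. Protocadherin-23 had 4 features, all in 1 assembly cluster and none over 348 bases, which summed to 50.9 TPM in the male brain and 17.97 TPM in the female brain, a ratio of 2.83 (1.86 to 4.31). Male and female levels were 16.8 and 1.49 TPM in one, 15.3 and 5.95 TPM in the next, then 11.4 and 4.44 TPM, and 7.41 and 6.09 TPM in the last. All 4 were higher in the male library, 3 of them by 2-fold or more, against 17.6% of all features of 380 bases or less. In the female library those 3 lay below 6.01 TPM, the lowest value of the higher library. They were thus listed through their male level alone, which the ratio of the sums does not allow for. The first of the 4 rests on 25 against 2 reads. The second, on 17 and 6 reads, had an interval that held 1, and its Swiss-Prot match is PCDHGA6. A protocadherin-16-like feature of 265 bases went the other way, at 6.31 and 7.70 TPM on 10 and 11 reads, with an interval that held 1. Fat4, the partner of dachsous, had 5 short features. They ranged from one at 18.5 and 5.69 TPM to one at 12.4 and 15.6 TPM in the male and female library, and both of these lie in 1 assembly cluster. A Fat1 feature of 314 bases stood at 8.88 and 4.13 TPM, 2.15-fold higher in the male library, with a counting interval that held 1, while the long Fat1 features were not lower in the female library.

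**Figure D4:**
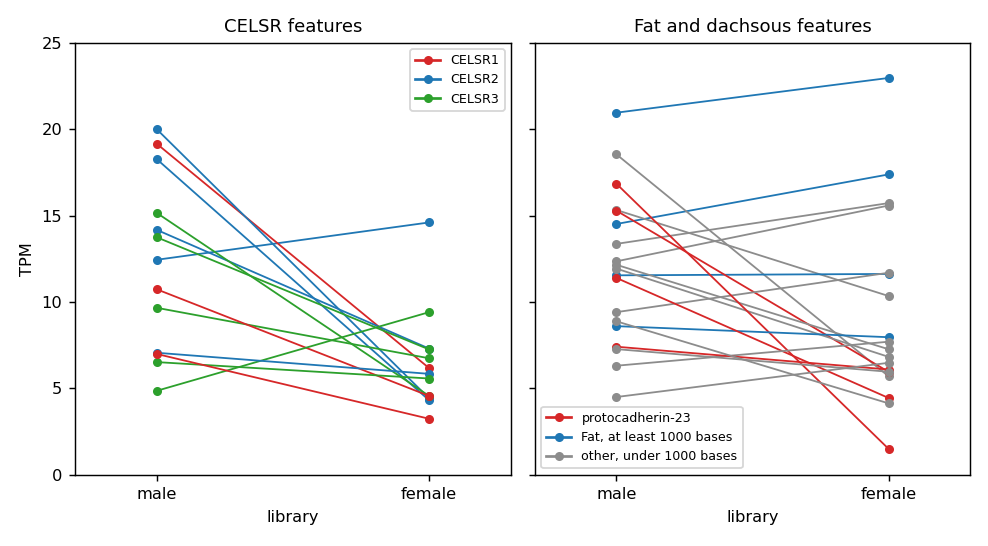
TPM (vertical axis, from 0) in the male and female library of the 13 CELSR features (left, a colour per protein) and the 19 Fat and dachsous features (right, protocadherin-23 in red, long Fat features in blue, others in grey), with 1 line per feature joining its values. In the left panel 11 lines slope down from male to female, in the right panel all 4 protocadherin-23 lines do, and the long Fat lines are nearly flat or slope upward, apart from Fat3 at 8.60 and 7.96 TPM.

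CELSR proteins, the vertebrate relatives of fly flamingo, join cadherin repeats to a receptor with membrane-spanning helices and act in planar polarity, ciliary beating and axon tracts. Their features leaned towards the male library. The 13 features summed to 159 TPM in the male brain and 84.0 TPM in the female brain, a ratio of 1.89 (1.53 to 2.34). Of these, 11 were lower in the female library and 6 were at least 2-fold lower there, with a median log2 ratio of -0.91. Of the 12 at 380 bases or less, 5 were 2-fold lower in the female library, against 17.6% of all features of that length, and 10 were lower by any amount, against 57.3%. None was over 411 bases long, so no CELSR value rests on a long feature, and several may belong to 1 transcript. In the female library several CELSR features lay below 6.01 TPM, the lowest value of the higher library. They were listed through their male level alone. A CELSR3 feature, at 4.86 and 9.41 TPM in the male and female library, was listed through its female level alone. The ratio of the sums and its interval do not allow for this.

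CELSR1 had 3 features, at 19.2 and 6.17 TPM, at 10.7 and 4.56 TPM, and at 6.99 and 3.24 TPM in the male and female library. All 3 were higher by 2-fold or more in the male library. The first has CELSR2 as its Swiss-Prot match. The second, on 13 and 5 reads, had a counting interval that held 1. The last, at a log2 ratio of -1.002, fell short of 2-fold with 1 TPM added (-0.91) and when centred on the median of all features (-0.93). In its assembly cluster, a feature with a CELSR1 Swiss-Prot match but no cadherin annotation was nearly level, at 15.95 and 14.4 TPM. CELSR2 had 5 features. The farthest apart stood at 19.99 and 4.42 TPM, 4.52-fold higher in the male library (1.85 to 13.3, from 30 and 6 reads), and at 18.3 and 4.31 TPM, 4.24-fold higher (1.84 to 11.4, from 33 and 7 reads). Another CELSR2 feature stood at 14.2 and 7.30 TPM and a further one at 7.06 and 5.84 TPM, while the last stood at 12.4 and 14.6 TPM, slightly higher in the female library. CELSR3 had 5 features, 4 of them in 1 assembly cluster. In that cluster the male and female levels were 15.2 and 4.56 TPM in a first feature, 13.7 and 7.25 TPM in a second, 6.52 and 5.57 TPM in another, and 4.86 and 9.41 TPM in the last. That last one was higher in the female library, so features of a single cluster again went both ways. Without the CELSR features, the sum of the other cadherins was 679 TPM in the male brain and 600.5 TPM in the female brain. Of these 60, 9 were higher by 2-fold or more in the male library. Of all features 10.1% were, and of all features of 380 bases or less 17.6%.

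**Figure D5:**
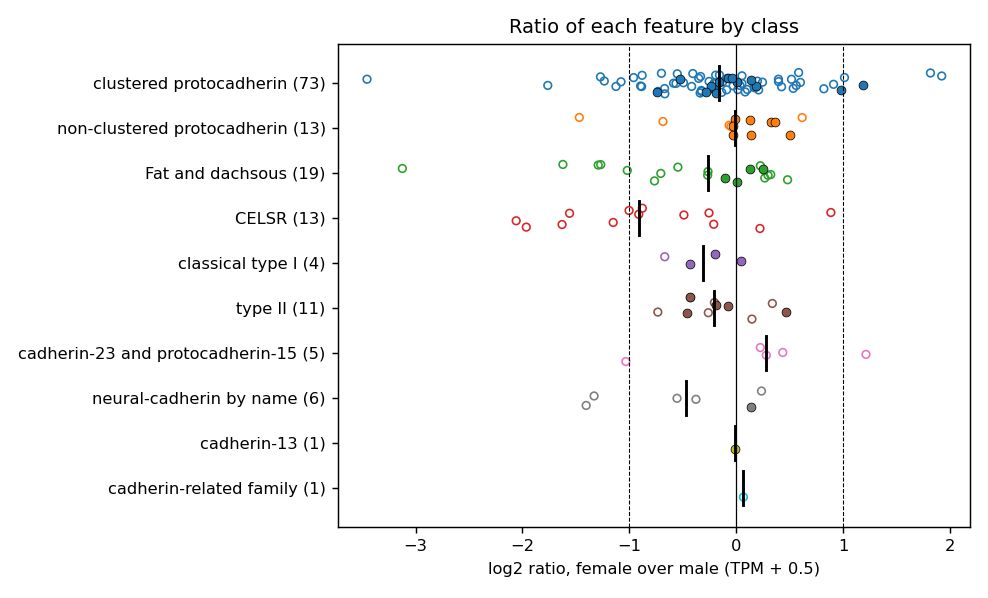
Log2 ratio of female over male TPM with 0.5 added (horizontal axis) of each cadherin feature, 1 row per class with its number of features, filled points at 1000 bases or more, open points below that and a black bar at the class median; points are spread vertically only for clarity, and dashed lines mark 2-fold. The CELSR median is -0.91 and the class has no filled point, while the filled points of the other classes lie between the dashed lines, except for 1 clustered protocadherin.

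The tip-link cadherins of hair cells, cadherin-23 and protocadherin-15, had 5 features, all of 384 bases or less. Cadherin-23 stood at 16.3 TPM in the male brain and 7.73 TPM in the female brain, with a counting interval that held 1. All 4 protocadherin-15 features were higher in the female library, while 56.2% of all features were lower there. They ranged from 12.9 and 15.1 TPM to 3.02 and 7.67 TPM. The last, on 11 and 25 reads, had an interval that left out 1, while the intervals of the others held 1. All but the one at 12.9 and 15.1 TPM lay below 6.01 TPM in the male library, the lowest value of the higher library. They were thus listed through their female level alone, which fixed their direction. Otoferlin (otof), another hair cell gene, stood at 12.3 and 9.33 TPM over 5562 bases, and rhodopsin at 11.7 and 12.2 TPM over 257 bases. The cadherin-related family member cdhr1, a protein of photoreceptor outer segments, stood at 12.1 and 12.7 TPM. A further 6 features were annotated only as neural-cadherin, a name that does not settle the class. The longest, of 2389 bases, stood at 5.85 and 6.48 TPM, the next, of 641 bases, at 6.60 and 4.97 TPM, and the shortest, of 217 bases, at 13.99 and 16.6 TPM. Of the rest, a feature of 299 bases stood at 17.8 and 6.78 TPM and one of 436 bases at 6.14 and 2.01 TPM, with intervals that left out 1.

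Few genes that work with cadherins were 2-fold apart. Of 83 genes in 6 lists, 65 were matched, 1 was higher by 2-fold or more in the female library and none in the male library, against 5.02% and 10.1% of all features. That 1 was a feature of 295 bases for plakophilin-3 (PKP3), a desmosomal protein, at 4.08 TPM in the male brain and 14.2 TPM in the female brain. Many of the matched features were long. Among all features of at least 1000 bases, 0.373% were 2-fold higher in the female library and 1.01% in the male library. A log2 ratio below 0 was found for 56.2% of all features, whose median was -0.07, so the lists are given beside these values. Catenins and adherens junction genes had 14 of 18 matched, with 8 above and 6 below a log2 ratio of 0 and a median of 0.07. CTNNB1 (beta-catenin), which links cadherins to alpha-catenin, stood at 169 and 167 TPM. Proteases that cut cadherins had 6 of 9 matched, with 3 on each side, and ADAM17 was the most abundant at 22.5 and 17.4 TPM.

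CTCF and cohesin, which take part in the choice of clustered protocadherin promoters in mammals, had 10 of 12 matched, with 6 above and 4 below 0 and a median of 0.07. The cohesin subunit rad21 stood at 57.3 and 64.9 TPM and the cohesin regulator PDS5A at 10.7 and 7.44 TPM. The actin and kinase partners of protocadherins had 14 of 14 matched, with 5 above and 9 below 0 and a median of -0.23. In that list nckap1, a WAVE complex subunit, stood at 133 and 91.1 TPM on a feature of 297 bases, and the kinase PTK2B at 10.2 and 6.09 TPM, 1.67-fold higher in the male library. Planar polarity partners had 8 of 16 matched, with 2 above and 6 below 0 and a median of -0.19. PRICKLE2 stood at 25.5 and 20.95 TPM and dvl3, a Wnt pathway adaptor, at 8.86 and 17.8 TPM, a plain TPM ratio of 2.01 (1.80 to 2.26) that lies under 2-fold with 0.5 added. Other synaptic adhesion genes had 13 of 14 matched. Of these, 2 were above and 11 below 0, against 56.2% of all features below it, with a median of -0.11. There nrxn1a (neurexin-1) stood at 119 and 121 TPM, NCAM1 at 67.5 and 47.5 TPM and the calsyntenin CLSTN3 at 95.4 and 91.1 TPM.

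Annotations that the choice of members did not use were largely shared. The gene ontology terms for calcium ion binding and for homophilic cell adhesion were each attached to 131 of 146 features. Only the first Pfam domain listed for a feature was counted, so a feature can hold further domains. It was Cadherin for 76 features and Cadherin_2, the first repeat of protocadherins, for 22, of which 21 were clustered protocadherins. The first domain was a cadherin cytoplasmic domain (Cadherin_C) for 10 features and Laminin_G_2 for 7, all of them CELSR, Fat or dachsous features. No domain was listed for 20.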

How the data were processed

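Brain RNA of 1 male and 1 female fish was measured in 1 library each. The values are TPM, deposited by the authors for both libraries in 1 table. Per the submitters' processing notes, cutadapt, FastQC, Salmon and edgeR were used, without versions or roles. Feature identifiers have the form given by the Trinity assembler, and a genome build is not given in the sources used here. The lowest value of the higher library was 6.01 TPM, and a feature that was lower in both was not analysed here.

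Columns were matched to libraries by title and grouped by the gender label. Members were found by annotation and placed in classes by protein name. The ratio was log2((female TPM + 0.5) / (male TPM + 0.5)), which understates folds where TPM is low, while printed folds are plain TPM ratios. Requiring 1 TPM in the higher library removed nothing. With 1 library per sex no p-value was computed.

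TPM holds no depth, but at any one length the values were multiples of a fixed step, taken as 1 read. Steps were found up to 400 bases and extended to longer features by a fitted fragment length distribution, so reads of longer features are estimates. Among values under 30 reads, 95.1% in each library lay within 0.1 of a whole number, where evenly spread values would give 20%. The steps were picked to fit these same values, so this share is no independent check of them. Read numbers gave exact 95% intervals, and sums got approximate ones from the same numbers.

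In each class the text names the 2 most abundant features and the 2 farthest apart of at least 500 bases. It also names features 2-fold apart whose interval left out 1, and features of at least 1000 bases with a mean of at least 20 TPM. In each list of partner genes it names the most abundant gene and the gene farthest apart. Other features were chosen after their values were seen. A listed gene was represented by its most abundant feature. The members, lists and rules were chosen with earlier results of these data known. Alternatives changed the pseudocount, minimum level, minimum length, centring, class names and features per name. The software was pandas 2.3.3, SciPy 1.17.1 and NumPy 2.4.6 under Python 3.11.15, with figures from Matplotlib 3.10.9, and the procedures were tested on simulated data.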

Additional observations from a re-analysis of the deposited data

How the results depend on the processing

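With 1 library per sex there is no replicate to leave out. No paired analysis was possible because each sex has a single library. A minimum length and keeping 1 feature per name both moved the counts and sums. The count of 21 members higher by 2-fold or more in the male library became 0 at a minimum of 500 bases and 0 at 1000 bases, and 8 when only the most abundant feature of each name was kept. The count of 5 in the female library became 1 at 500 bases, 1 at 1000 bases, 0 with 1 feature per name and 3 at a minimum of 10 TPM. The median log2 ratio of other cadherins was -0.20 and became -0.000254 at 1000 bases, -0.021 at 500 bases, -0.030 with 1 feature per name and -0.049 at a minimum of 10 TPM. The log2 ratio of summed clustered protocadherins, -0.19, became -0.011 at 500 bases, -0.028 at 1000 bases and -0.11 when centred on the median of all features (-0.07). That of other cadherins, -0.29, became -0.0037 at 500 bases, 0.040 at 1000 bases and -0.12 with 1 feature per name; the value at 1000 bases lies on the other side of 0. The cause was not tested. Other pseudocounts (0.1 and 1), the other minimum, centring on long features, classes by Swiss-Prot name and, chosen after seeing the data, leaving out CELSR or the most abundant feature gave counts within 1.5 times and sums and medians in the same direction, except as given. Centring moved all ratios up by 0.07, which turned the sign of 8 of 146 members, among them cadherin-13 and both long protocadherin-10 features, all with intervals that held 1. It also took a CELSR1 feature and cadherin-23 under 2-fold, as did a pseudocount of 1, and took the gamma-A2-like feature of 1438 bases past it (1.06), as did a pseudocount of 0.1 (1.06). Short features rest on few reads, so a lower level there was often not detectable at this depth.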

Other observations

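A further 4 features carried a cadherin in their Swiss-Prot match but not in their annotation and so were not members. A PCDHGB7 match of 669 bases stood at 6.21 TPM in the male brain and 8.96 TPM in the female brain, and a PCDHGB3 match of 334 bases at 5.44 and 8.11 TPM. A match of 318 bases to a type II cadherin, annotated as a desmocollin, stood at 9.94 and 14.3 TPM. A CELSR1 match of 252 bases stood at 15.95 and 14.4 TPM, closer to level than any of the 3 features annotated as CELSR1. It shares an assembly cluster with the CELSR1 feature at 6.99 and 3.24 TPM.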
